A study of Zea mays with 4 samples.

Results

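The distal 10 Mb of both ends of maize chromosomes 1 to 10, 20 ends in all, held 3027 of the 35143 peaks in 2 ChIP-seq peak lists for the transcription factor P1. Members were all peaks whose midpoint lay under 10 Mb from the start of a chromosome, or within 10 Mb of the last peak position of that chromosome in either list. List 1 had 1767 of its 20424 peaks there and list 2 had 1260 of its 14719. The other 18606 and 13387 peaks of the chromosomes formed the interior against which the ends were set.

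In chromatin immunoprecipitation followed by sequencing (ChIP-seq), DNA bound to a protein is pulled down with an antibody and sequenced, and a peak is a stretch with more reads than a control. Pericarp, the maternal layer around the kernel, was peeled from ears at 14 days after pollination, and P1 was precipitated with polyclonal antibodies. The 2 P1-rr libraries came from plants that express P1 in the pericarp, and the 2 P1-ww libraries, the control, from near-isogenic plants that do not. The P1-rr line carries the allele of stock 65-CFS-305, which also has the P2 gene, backcrossed into inbred A619; A619 has a non-functional P1 and lacks P2. Both lines are therefore A619 apart from donor DNA on chromosome 1 (35 to 66 Mb) and chromosome 6 (89 to 102 Mb, positions on build AGPv2), and neither donor piece reaches an end if the lists use that build. List 1 sets P1-rr replicate 1 over P1-ww replicate 1, and list 2 sets P1-rr replicate 2 over P1-ww replicate 2. The lists give positions and a score per peak, which is the authors' own, so depth is unknown here.

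P1 is an R2R3-MYB protein that switches on flavonoid genes, among them those for chalcone synthase and dihydroflavonol reductase, and so gives the pericarp its red phlobaphene pigment. Maize chromosomes are known for genes and crossovers that crowd towards the ends, while the middle is rich in retrotransposons. The comparison here is whether P1 peaks are denser in the ends than in the interior. The gene content of the ends was not examined, because no annotation of the lists' build was used here, and no sequence is shown for the same reason.

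Peaks were fewer per Mb in the distal 10 Mb than in the interior in both lists. The ends had a density in list 1 of 8.84 peaks per Mb (95% interval of the exact Poisson kind, 8.43 to 9.26), against 10.0 in the interior (9.87 to 10.2). In list 2 the ends had 6.30 per Mb (5.96 to 6.66), against 7.21 in the interior (7.08 to 7.33). The ends made up 9.72% of the span of the chromosomes and held 8.67% of the chromosomal peaks of list 1 and 8.60% of those of list 2. These intervals cover the counting of peaks only. In a quasi-Poisson fit over 207 tiles, the 20 ends and 187 interior tiles of about 10 Mb, with chromosome as a term, the end to interior ratio was 0.880 in list 1 (95% interval 0.792 to 0.977, adjusted p = 0.034, n = 207 tiles). The ratio was 0.874 in list 2 (0.780 to 0.978, adjusted p = 0.034, n = 207 tiles). Adjustment, by Benjamini and Hochberg, ran over the 9 comparisons of ends with interior made on these lists. The fit takes its error from the spread between tiles, not between plants, and takes neighbouring tiles as independent. The lists did not differ detectably in this ratio: the odds ratio for a peak to be of list 1 was 1.01 in the ends over the interior (0.930 to 1.09, adjusted p = 0.86, n = 207 tiles).

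The deficit depended on how far into the chromosome the interior reached. Set only against the 20 Mb next to each end, the ends had a ratio of 0.981 in list 1 (95% interval 0.895 to 1.08) and 1.04 in list 2 (0.939 to 1.15), neither of which passed the test. With ends of 5 Mb the ratios were 0.952 (0.845 to 1.07) and 0.944 (0.830 to 1.07), and neither passed. The sparse stretch was thus not bounded by the 10 Mb limit, and the interior further in carried the higher density.

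Distance from the chromosome end showed the same pattern in finer steps. In list 1 the outermost 2 Mb had 10.2 peaks per Mb (9.21 to 11.2), the stretch from 2 to 5 Mb had 9.0 (8.26 to 9.79) and that from 5 to 10 Mb had 8.20 (7.65 to 8.78). Further in, list 1 had 8.67 per Mb from 10 to 20 Mb, 9.34 from 20 to 30 Mb, 9.49 from 30 to 40 Mb and 10.4 (10.2 to 10.6) beyond 40 Mb. The outermost 2 Mb were thus as dense as the deep interior, and the lowest estimates were those of the classes from 5 to 20 Mb. In list 2 the outermost 2 Mb had 7.50 per Mb (6.68 to 8.40), the stretch from 2 to 5 Mb had 6.23 (5.62 to 6.90) and that from 5 to 10 Mb had 5.86 (5.4 to 6.35). The values of list 2 further in were 5.90 per Mb from 10 to 20 Mb, 6.25 from 20 to 30 Mb, 6.70 from 30 to 40 Mb and 7.65 (7.49 to 7.80) beyond 40 Mb. In both lists, the estimates of the classes from 5 to 20 Mb were thus the lowest, but their borders were not sharp. The interval from 10 to 20 Mb, 8.27 to 9.09 in list 1 and 5.57 to 6.25 in list 2, overlapped those of 2 to 5 Mb and 20 to 30 Mb. Single bins of 1 Mb crossed the borders too. List 1 had 10.2 per Mb from 11 to 12 Mb and 7.6 from 20 to 21 Mb, and list 2 had 5.45 from 33 to 34 Mb. A separate sparse stretch with these limits was therefore not shown. These classes of distance were chosen after the data were seen and carry no test.

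**Figure D1:**
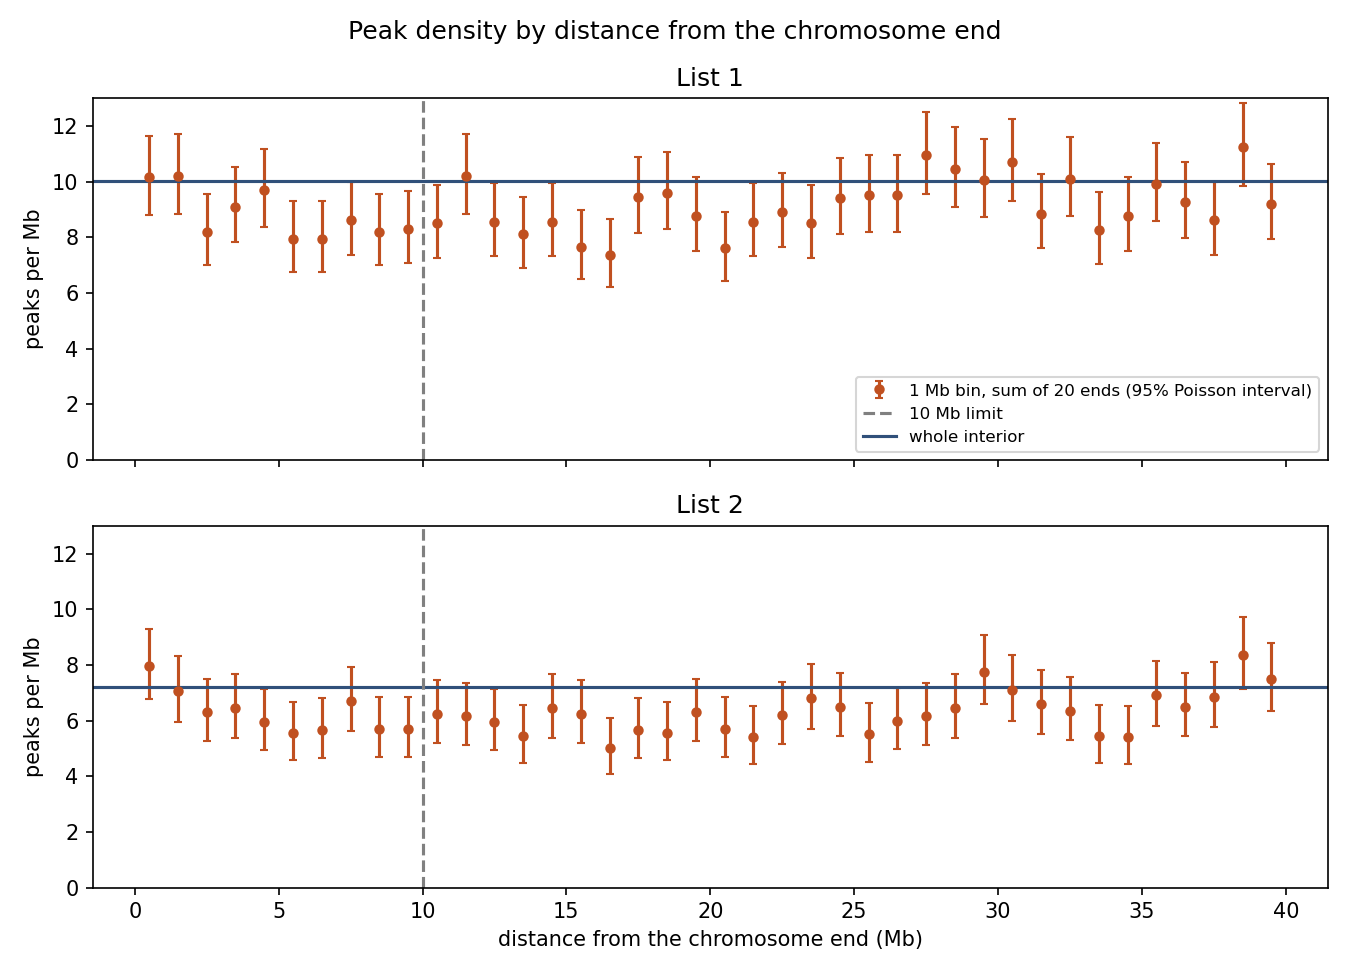
Peaks per Mb (y axis) in 1 Mb bins by distance from the nearest chromosome end (x axis, Mb), summed over the 20 ends, with exact Poisson 95% intervals, for list 1 (top) and list 2 (bottom). The dashed line marks the 10 Mb limit and the solid line the whole interior, 10.0 per Mb in list 1 and 7.21 in list 2. The bins from 2 to 27 Mb lie below the solid line in both lists, save that from 11 to 12 Mb in list 1.

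The list 1 member closest to the 10 Mb limit lay on chromosome 8 at 9996117 to 9996316, with a width of 200 bp and a score of 185.44. The nearest list 1 peak outside lay on chromosome 6 at 10011631 to 10011830, also 200 bp wide, with a score of 3100. In list 2 the closest member was on chromosome 2 at 9998577 to 9999061 (485 bp, score 41.09) and the nearest peak outside on chromosome 7 at 10010658 to 10011043 (386 bp, score 41.43). All positions come from the lists and are counted from 1; their build is not known here.

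Most of the 20 ends were below the whole interior of their own chromosome in each list. In list 1 an end held 67 to 120 peaks (median 84), and in list 2 it held 49 to 75 (median 60.5). Over the ends the mean was 8.84 ± 1.41 peaks per Mb in list 1 and 6.30 ± 0.721 in list 2 (SD over 20 ends, which are not replicates). The variance of the counts over their mean was 2.25 in list 1 and 0.825 in list 2, where counting error alone gives a value near 1. In list 1, 16 of the 20 ends were below the interior of their chromosome, where 58% of all 207 tiles were below it. In list 2, 16 of the 20 were below, where 55.1% of all tiles were. Set only against the interior within 20 Mb of each end, 11 of the 20 were below it in list 1 and 9 in list 2. Against the whole interior, the same 14 ends were below in both lists, and 2 were above in both. With 16 of the 20 below in each list, most of them had to be the same ends. The count of 14 therefore says little about how far the lists agree.

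No single end stood apart after adjustment. When every tile was tested against the interior of its chromosome with the quasi-Poisson dispersion of the list, 0 of the 20 ends was called in list 1 at an adjusted p under 0.05, beside 0% of all tiles. In list 2, 0 of the 20 was called too, again beside 0% of all tiles. At an unadjusted p under 0.05, 0 ends were counted in either list, beside 8 of the 207 tiles in list 1 and 10 in list 2, of which 7 and 8 were denser than their interior. The lowest adjusted p of an end was 0.89 in list 1 and 0.96 in list 2. The interval of a single end was wide, from 0.397 to 1.1 for the ratio at the low-coordinate end of chromosome 5.

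The pair of ends above their interior in both lists were high-coordinate ends. That of chromosome 2 held 108 peaks in list 1 (10.8 per Mb, against 9.23 in the interior, ratio 1.17) and 74 in list 2 (7.40 against 6.5, ratio 1.14). That of chromosome 3 held 103 in list 1 (10.3 against 9.45, ratio 1.09) and 73 in list 2 (7.30 against 6.75, ratio 1.08). Chromosome 2 was also the only one whose 2 ends together exceeded the interior, at 9.50 against 9.23 per Mb in list 1 and 7.25 against 6.5 in list 2. Its low-coordinate end held 82 list 1 peaks, below the interior (ratio 0.889), and 71 list 2 peaks, above it (ratio 1.09). On the other 9 chromosomes the ends together were below the interior in each list, with ratios down to 0.737 on chromosome 8 in list 1 and 0.804 on chromosome 4 in list 2.

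The densest end of both lists was the low-coordinate end of chromosome 4. It held 120 list 1 peaks, 12 per Mb against 10.9 in the interior (ratio 1.1), and 75 list 2 peaks, 7.50 per Mb against 8.40 (ratio 0.893). Chromosome 4 has the densest interior of both lists, so the first place of this end in list 2 went with a density below that of its own interior. None of its peaks overlapped the other list. The high-coordinate end of the same chromosome held 90 and 60 peaks, with ratios of 0.823 and 0.714.

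The sparsest end differed between the lists. In list 1 it was the high-coordinate end of chromosome 8, with 67 peaks (6.70 per Mb against 9.90, ratio 0.676), where list 2 had 56 (5.60 against 7.21, ratio 0.777). In list 2 it was the high-coordinate end of chromosome 7, with 49 peaks (4.90 per Mb against 7.23, ratio 0.677), where list 1 had 80 (8.00 against 10.2, ratio 0.786). Both ends were below the interior in each list. The lowest ratio of list 1 belonged to the low-coordinate end of chromosome 5, with 71 peaks (7.10 per Mb against 10.8, ratio 0.660), and list 2 had 58 peaks there (5.80 against 7.34, ratio 0.790).

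Besides the low-coordinate ends of chromosomes 2 and 4, a further pair of ends lay on opposite sides of their interior in the lists. The low-coordinate end of chromosome 1 held 106 list 1 peaks (10.6 per Mb against 9.58, ratio 1.11) and 60 list 2 peaks (6.00 against 7.02, ratio 0.855). The low-coordinate end of chromosome 6 held 78 list 1 peaks (7.80 against 9.75, ratio 0.80) and 72 list 2 peaks (7.20 against 6.99, ratio 1.03). None of these ratios was called. The remaining ends were below the interior in both lists, with 77 to 105 list 1 peaks and 54 to 68 list 2 peaks each, among the ends not named above.

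**Figure D2:**
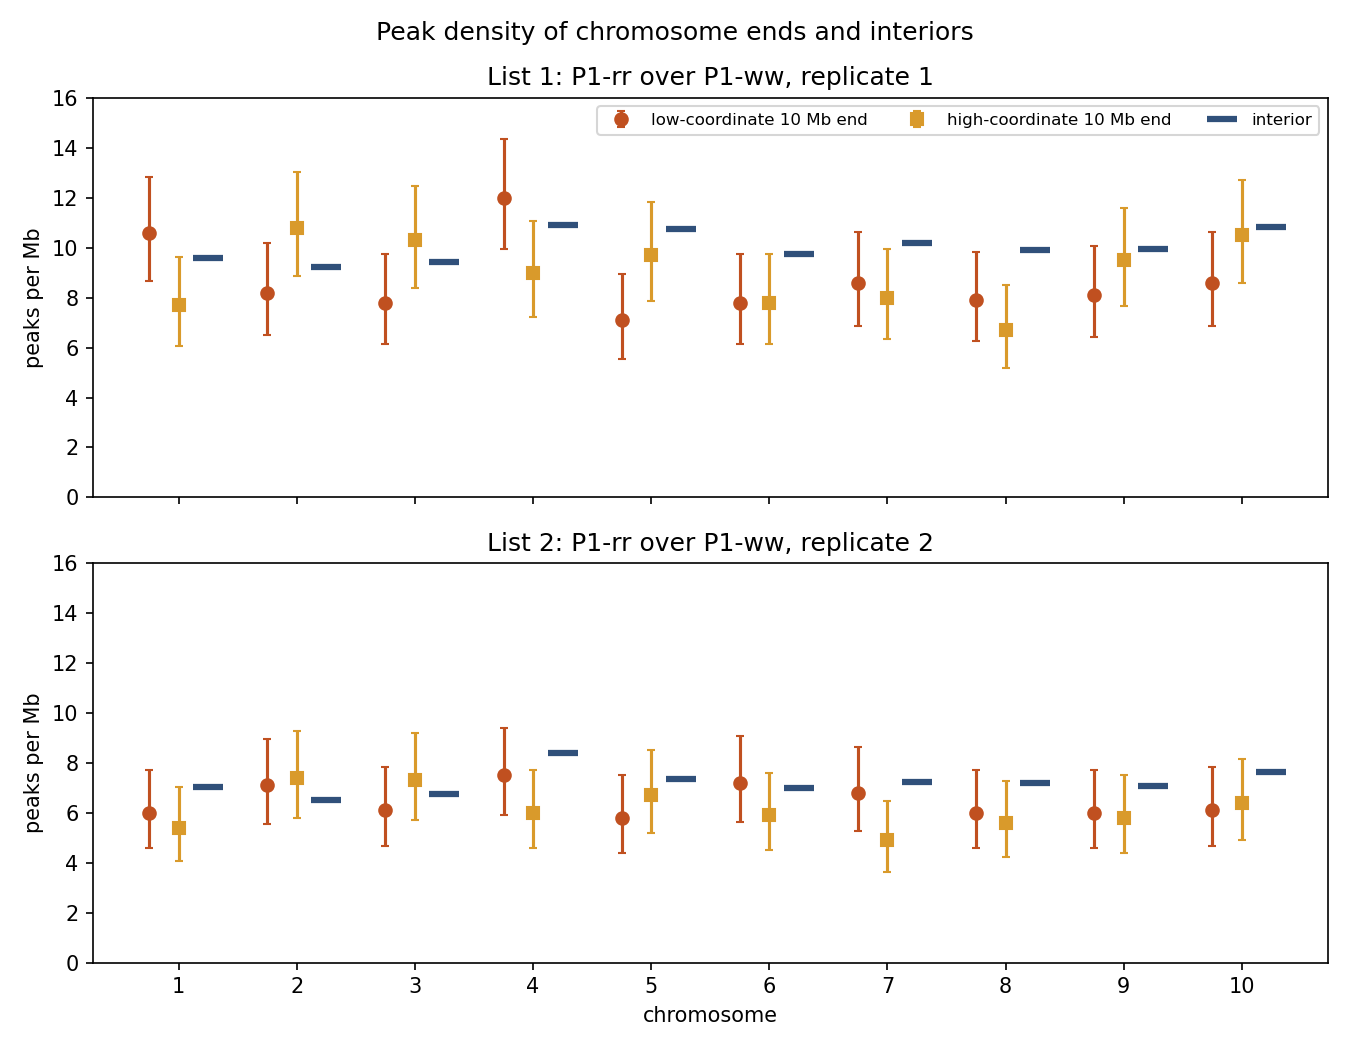
Peaks per Mb (y axis) in the low-coordinate 10 Mb end, the high-coordinate 10 Mb end and the interior of each chromosome (x axis), for list 1 (top) and list 2 (bottom), with exact Poisson 95% intervals for the ends. Most ends lie below the bar of their interior, and the high-coordinate ends of chromosomes 2 and 3 lie above it in both lists.

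The low- and high-coordinate ends, taken apart, gave ratios with overlapping intervals. In list 1 the 10 low-coordinate ends held 867 peaks (ratio to the interior 0.863, 95% interval 0.744 to 1.00) and the 10 high-coordinate ends 900 (0.895, 0.774 to 1.04). In list 2 they held 646 (0.895, 0.766 to 1.05) and 614 (0.851, 0.724 to 1.00). The order of the sides was opposite in the lists, and the difference between sides was not tested.

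The lists resembled each other in which ends were denser. Across the 20 ends, Pearson's r between the densities of list 1 and list 2 was 0.579 and Spearman's rho 0.607, and across the 187 interior tiles they were 0.762 and 0.690. These are descriptions across regions. Each list comes from its own pair of libraries, and the pairs share the antibody, the aligned sequence and its composition. The ends spanned a narrower range than the interior tiles, 6.70 to 12 against 5.56 to 18.4 peaks per Mb in list 1, and 4.90 to 7.50 against 2.82 to 13.5 in list 2. A range over 20 ends tends to be narrower than one over 187 tiles. The SD of density was 2.25 in list 1 and 1.77 in list 2 over interior tiles, against 1.41 and 0.721 over ends. Of the 187 interior tiles, 47 in list 1 and 50 in list 2 were sparser than the median end. The ends thus lay within the interior's range, and their lack of the densest values was not tested.

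**Figure D3:**
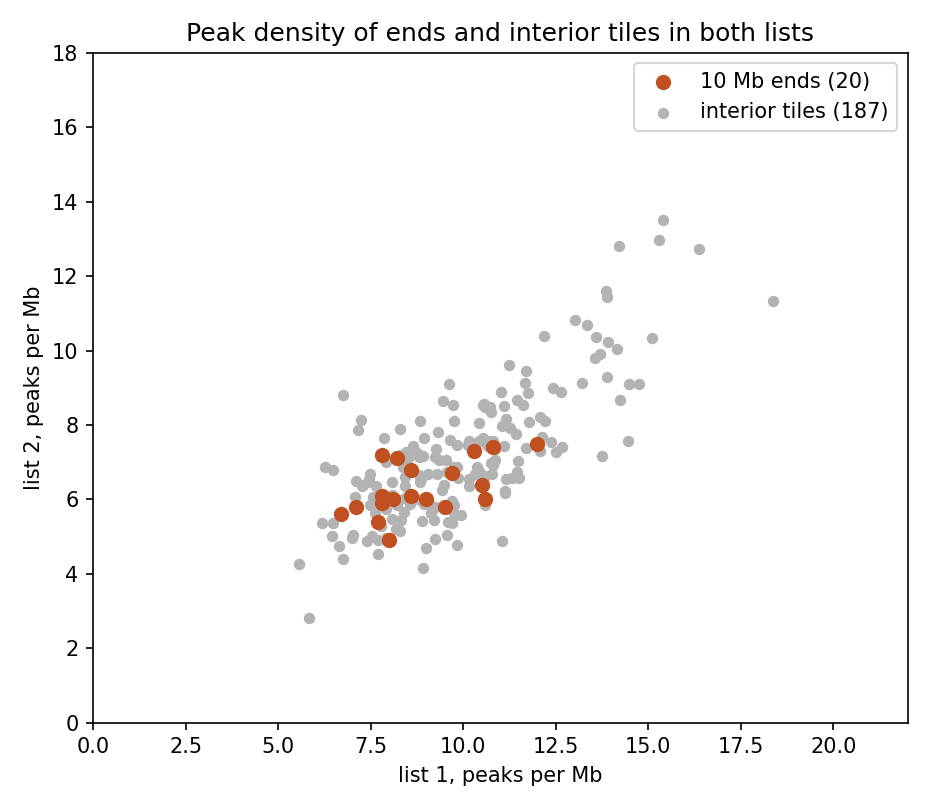
Peaks per Mb in list 1 (x axis) and list 2 (y axis) for the 20 ends of 10 Mb and the 187 interior tiles of about 10 Mb. The ends lie between 6.70 and 12 on the x axis and between 4.90 and 7.50 on the y axis, inside the range of the interior tiles, and none lies among the densest of these.

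The classes of peak in which the deficit of the ends passed the test differed between the 2 lists. Beyond the share of 200 bp peaks, the density ratios of classes were not tested against each other. In list 2 the deficit passed in wide peaks. Peaks wider than 200 bp numbered 826 in the ends, 4.13 per Mb against 5.08 in the interior, a ratio of 0.812 (95% interval 0.706 to 0.934, adjusted p = 0.011, n = 207 tiles). Peaks of exactly 200 bp, the smallest width in either list, numbered 434 in the ends, 2.17 per Mb against 2.13, a ratio of 1.02 (0.914 to 1.14), which did not pass. The share of 200 bp peaks in list 2 was therefore higher in the ends, 34.4% (Wilson 95% interval 31.9 to 37.1) against 29.5% (28.7 to 30.3), and this difference passed the test (quasi-binomial odds ratio 1.25, 1.1 to 1.44, adjusted p = 0.0050, n = 207 tiles). It did not pass with ends of 5 Mb (odds ratio 1.21, 1.02 to 1.45) or in the higher-scoring 50% of the list (1.16, 0.975 to 1.39), after adjustment.

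The width of list 2 peaks varied along the ends. Median width was 282 bp in the ends (interquartile range 200 to 457) and 336 bp in the interior (200 to 489). Among the 20 ends the median ran from 231 to 369.5 bp and the share of 200 bp peaks from 26.7% to 41.3%. Within the ends that share was 28.3% in the outermost 2 Mb, 38.5% from 2 to 5 Mb and 35.0% from 5 to 10 Mb, and it was 28.7% beyond 40 Mb. The median width was 300 bp in the outermost 2 Mb, 249 bp from 2 to 5 Mb, 302 bp from 5 to 10 Mb and 343 bp beyond 40 Mb. The widest of the 1260 members of list 2 measured 1743 bp, against 2925 bp among the 13387 interior peaks, which are far more.

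In list 1 nearly every peak had the smallest width, so width did not separate the ends. Peaks of 200 bp were 95.6% of the members (94.6 to 96.5) and 95.5% of the interior (95.2 to 95.8), with an odds ratio of 1.03 (0.795 to 1.33) that did not pass the test. By score, the deficit of list 1 passed the test in the higher-scoring 50% only, and the density ratios of the score classes were not tested against each other. The higher-scoring 50% of list 1 had 852 peaks in the ends, 4.26 per Mb against 5.28 in the interior (ratio 0.805, 95% interval 0.708 to 0.916, adjusted p = 0.0034, n = 207 tiles). The lower-scoring 50% had 915, 4.58 per Mb against 4.73 (ratio 0.963, 0.866 to 1.07) and did not pass.

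List 2 showed the opposite order of score classes, but there score went with width. In the ends of list 2 the median score was 116.93 for 200 bp peaks and 59.6 for wider ones. The score classes of list 2 are thus not separate from its width classes. Its lower-scoring 50% had 578 peaks in the ends, 2.89 per Mb against 3.61 (ratio 0.798, 0.686 to 0.928, adjusted p = 0.011, n = 207 tiles). Its higher-scoring 50% had 682, 3.41 per Mb against 3.59 (ratio 0.95, 0.855 to 1.06) and did not pass. Among the higher-scoring 50% of both lists, the odds for a peak to be of list 1 were lower in the ends than in the interior (odds ratio 0.848, 0.761 to 0.944, adjusted p = 0.0083, n = 207 tiles). The classes of width and the lower-scoring 50% were looked at after the main results were known.

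**Figure D4:**
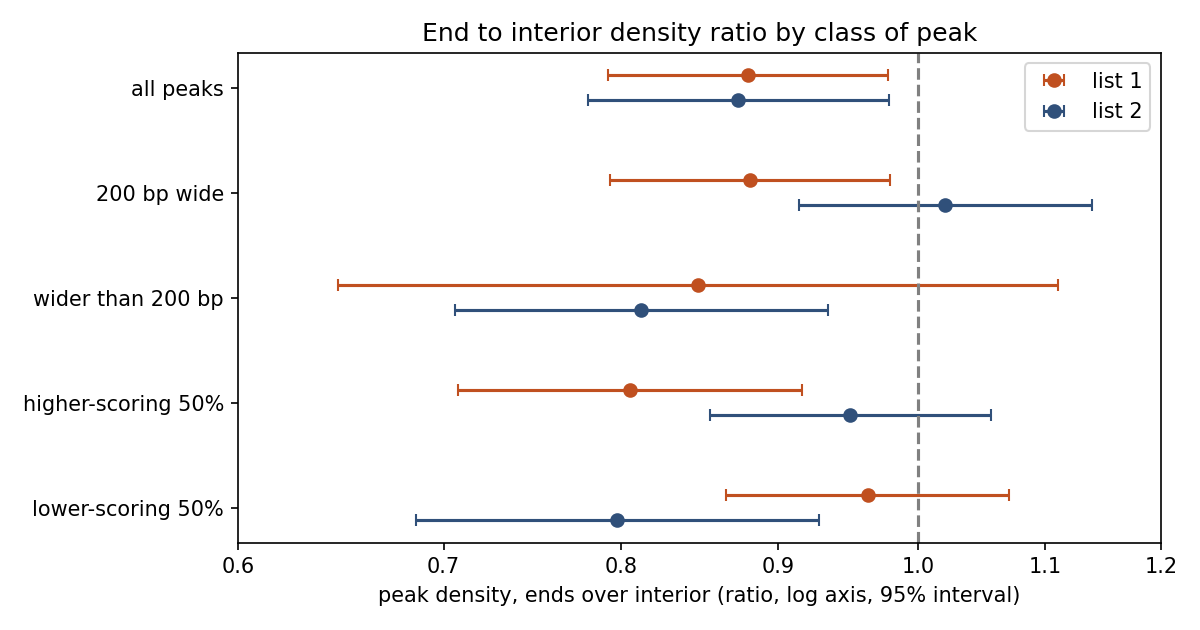
Ratio of peak density in the ends to that in the interior (x axis, log scale, with 95% intervals of the quasi-Poisson fit) for all peaks and for classes by width and by score (y axis), in list 1 and list 2. The ratio lies at 0.805 for the higher-scoring 50% of list 1 and at 0.798 for the lower-scoring 50% of list 2, and at 1.02 for 200 bp peaks of list 2.

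Scores of the ends differed from those of the interior in opposite directions. In list 1 the median score was 237.92 in the ends (interquartile range 152.6 to 520.8) and 282.63 in the interior (152.6 to 672.49). The mean log10 score of list 1 was lower in the ends by a fitted difference of -0.0547 (95% interval -0.0809 to -0.0285, adjusted p = 5.17e-04, n = 207 tiles, least squares over tiles weighted by peaks). In list 2 the median was 74.29 in the ends (52.0 to 116.93) and 69.84 in the interior (51.96 to 111.47), and the fitted difference of mean log10 score was 0.0209 (0.00568 to 0.0362, adjusted p = 0.022, n = 207 tiles). In list 2 narrow peaks score higher than wide ones, and within one width class the difference did not pass the test. It was 0.00961 among 200 bp peaks (-0.0128 to 0.0320) and 0.00566 among wider ones (-0.00849 to 0.0198). The scale of the score is not stated, and levels of the lists were not compared.

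The highest scores of the ends are given as a description, with no test. Of the members of list 1, 67 had the score of 3100 that many peaks share, 0.335 per Mb (0.260 to 0.425), against 865 peaks and 0.466 per Mb (0.435 to 0.498) in the interior. The highest untied score of a list 1 member was 3107.26, at 229965388 to 229965587 in the high-coordinate end of chromosome 2, while 4 members shared the higher value of 3151.69. In list 2 the highest score of a member was 2226.14, at 141068182 to 141068381 in the high-coordinate end of chromosome 10. Next came 1447.1 at 4175927 to 4176126, in the low-coordinate end of chromosome 2, and 1101.68 at 9537907 to 9538106, in that of chromosome 10. All of these list 2 peaks were 200 bp wide, and none of the single peaks named here overlapped the other list.

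The share of members found in both duplicates did not differ detectably from that of the interior. Of the list 1 members, 44 overlapped a list 2 peak by 1 bp or more, which is 2.49% (Wilson 95% interval 1.86 to 3.33), against 2.19% of the interior (1.99 to 2.41) and 2.23% of the whole list. Of the list 2 members, 44 overlapped list 1, or 3.49% (2.61 to 4.66), against 3.03% (2.75 to 3.33) and 3.08% of the whole list. The odds ratios of 1.15 (0.839 to 1.58, adjusted p = 0.49) and 1.17 (0.849 to 1.61, adjusted p = 0.49, n = 207 tiles) did not pass the test. They turned to 0.908 and 0.915 with ends of 5 Mb and to 0.830 and 0.866 with ends of 20 Mb, so no direction is given. The members formed 44 shared regions, 0.220 per Mb (exact Poisson 95% interval 0.160 to 0.295), beside 405 regions and 0.218 per Mb (0.197 to 0.240) in the interior.

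Shared regions occurred in 17 of the 20 ends. The high-coordinate end of chromosome 2 held the most with 6, followed by 5 in that of chromosome 1 and 4 in the low-coordinate end of chromosome 3. The low-coordinate end of chromosome 4 and the high-coordinate ends of chromosomes 6 and 7 held none, which over 10 Mb says little at this density. Of the 44, 19 lay in the outermost 5 Mb and the others between 5 and 10 Mb. Of all members, 947 of 1767 in list 1 and 674 of 1260 in list 2 lay in the outermost 5 Mb. The lengths of the 44 regions were 200 to 1115 bp (median 469.5), with an overlap between their peaks of 6 to 441 bp (median 187). In 14 of the 44, at least 50% of both peaks overlapped, beside 95 of the 405 regions in the interior. These shares were not tested.

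The shared region of best mean rank in the ends lay 7.08 Mb from the high-coordinate end of chromosome 5. It spanned 210766427 to 210766820, with scores of 2500.96 in list 1 and 175.58 in list 2, although its peaks overlapped by 6 bp. It was also the only one of the 44 whose peaks were both in the highest-scoring 10% of their lists, beside 4 of the 405 in the interior. The second lay in the low-coordinate end of chromosome 10, at 6676186 to 6676705, with scores of 724.22 and 122.52 and the whole list 1 peak inside the list 2 peak (200 bp). The third, in the low-coordinate end of chromosome 8 at 7966209 to 7966408, had one and the same 200 bp interval in both lists, with scores of 882.38 and 111.06.

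The next regions by rank came from 4 chromosomes. A pair lay near each other in the high-coordinate end of chromosome 1, at 291519125 to 291519337 (scores 282.63 and 139.51) and at 291953384 to 291953791 (621.33 and 80.35). In the low-coordinate end of chromosome 7, 2459910 to 2460683 scored 471.53 and 91.24. In the high-coordinate end of chromosome 8, 171225482 to 171225881 scored 237.92 and 143.6. The mean ranks from the second region to the last of the 10 lay between 21.6% and 39.3% of the list. The others of the 10 were 233248370 to 233248915 (282.63 and 113.89) and 6946838 to 6947219 (216.04 and 127.12) in the high- and low-coordinate ends of chromosome 2, and 958025 to 958483 (471.53 and 76.3), which lay 0.958 Mb from the low-coordinate end of chromosome 1. No gene or promoter is assigned to these regions, since no annotation of the lists' build was used here.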

How the data were processed

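ChIP DNA from pericarp gave 4 libraries, and the authors deposited 2 peak lists, each called on 1 P1-rr library with the P1-ww library of its number as control, per the labels. Base calling used CASAVA 1.4 and alignment Bowtie, per the submitters' processing notes, and peak names in the lists carry the prefix MACS. Genome build and caller settings were not given in the sources used here. Each peak has a position and a score, which the authors deposited with no stated scale. The lists hold no reads, so depth is unknown. Of the value columns, 0 were left unmapped.

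Starts were changed to counting from 1. Chromosomes ran to the largest peak end in either list, and the interior was cut into equal tiles of about 10 Mb (9.74 to 10.1 Mb). Counts per tile were fitted by quasi-Poisson, shares by quasi-binomial (dispersion not under 1) and mean log10 score by weighted least squares, with chromosome as a term and two-sided tests, in statsmodels 0.14.6 with numpy 2.4.6, pandas 2.3.3 and scipy 1.17.1 under Python 3.11.15. A higher-scoring 50% held all peaks at or above the list median. Fits were checked on simulated data in which tiles were drawn independently of each other. Figures used matplotlib 3.10.9. For an alternative, its p replaced the main one among the 9 comparisons before adjustment.

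The ends and tests were chosen with earlier results of these data known. Regions named are the densest and sparsest ends, the 10 shared regions of best mean rank and the highest untied scores; other ends and peaks named were picked after their values were seen. The labels describe biological duplicates, and tiles and peaks of a list share 1 pair of libraries, so p-values describe spread along the genome.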

Additional observations from a re-analysis of the deposited data

How the results depend on the processing

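Of 62 alternative values, 40 did not change direction or call (counts: moved by under 1.5 times); 12 of the 62, those by width, by the lower-scoring 50% and without the outermost 2 Mb, were chosen after seeing the data. With 1 Mb windows the density ratio and the count of ends below the interior could not change. Only the error could, and it took neighbouring windows as independent. The density ratio kept its call in both lists with 1 Mb windows, 20 Mb ends and covered base pairs. It also kept it with an interior without the donor pieces and with ends without their outermost 2 Mb. It lost the call with 5 Mb ends (0.952 in list 1, 0.944 in list 2) and beside the neighbouring 20 Mb (0.981 in list 1, turned to 1.04 in list 2, where 9 of 20 ends were then below the interior). It also lost it in list 1 for the lower-scoring 50% (0.963) and for wide peaks, which were few (0.847), and in list 2 for the higher-scoring 50% (0.95) and 200 bp peaks (1.02). The list 1 score difference lost its call among wide peaks (-0.124), and that of list 2 with 5 Mb ends (0.0216), 200 bp peaks (0.00961) and wider peaks (0.00566). The odds of list 1 turned to 0.848 in the higher-scoring 50%. The 200 bp share, not called in list 1, turned to 0.889 and 0.918 with 5 and 20 Mb ends, and in list 2 lost its call with 5 Mb ends (1.21) and in the higher-scoring 50% (1.16). The overlap odds, never called, turned with 5 Mb ends (0.908 in list 1, 0.915 in list 2) and 20 Mb ends (0.830, 0.866). The cause of these changes was not tested. The odds of list 1 and the overlap odds use both lists. Every other fit was run on 1 list alone, so its value comes without the other duplicate. No paired analysis was possible because the peaks were called within a pair, so values of single libraries to block on are not in the lists used here. The error of a single end was set by its count and by the spread between all tiles (dispersion 4.57 in list 1, 3.75 in list 2). With that error a modest change in a single end could not be called.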

Other observations

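Neighbouring peaks stood further apart in the ends, with a median gap between midpoints of 67.3 kb against 58.6 kb in the interior in list 1 and of 101 kb against 80.9 kb in list 2. The widest gap within an end was 992 kb in list 1, in the low-coordinate end of chromosome 5, and 1061 kb in list 2, in that of chromosome 4. Interiors held wider gaps, up to 1731 kb and 1881 kb, but among far more gaps. There were 18596 in list 1 and 13377 in list 2, against 1747 and 1240 in the ends, so these maxima are not comparable.

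Several ends were lopsided. The outer 5 Mb held more peaks than the inner 5 Mb in 14 of 20 ends in list 1 and in 11 of 20 in list 2, with 10 ends in common. Interior tiles were not split in the same way, so these counts have no background beside them. The low-coordinate end of chromosome 3 had 55 peaks in its outer and 23 in its inner 5 Mb in list 1, and 44 and 17 in list 2. The high-coordinate end of chromosome 8 had 47 and 20 in list 1 but 28 and 28 in list 2. In the high-coordinate end of chromosome 5 the counts were 64 and 33 in list 1 and 42 and 25 in list 2. These ends were picked after their values were seen, and no test was run.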
